A study of Mus musculus with 11 samples.

Results

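MEL-selective PU.1 sites are places in the mouse genome where PU.1 ChIP-Seq recovered many reads in Murine erythroleukemia (MEL) cells and few in erythroid progenitors. They were chosen by these same read numbers, in fixed bins of 500 bp on chromosomes 1 to 19 of mm9. A bin was kept with at least 15 MEL ChIP reads over both preparations and at least 4 in each. It also needed over 5 times the depth-scaled progenitor reads and at least 4 times the scaled MEL input, which was set to no less than 3 reads. The rule found 862 bins, which joined into 836 sites, of which 810 are 1 bin and 26 are 2 adjacent bins. They come from 4944676 bins, of which 13791 met every requirement but the fold, and 6.25% of these 13791 bins were MEL-selective. Meeting these limits does not by itself show binding, since a bin with 15 MEL reads and 1 MEL input read already meets the one on input. The same rule turned round, with the cell types exchanged, chose 498 of 9183 bins (5.42%). Since the reads chose the sites, their excess in MEL cells is a description and was given no test.

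The MEL cells, transformed murine erythroid cells, were stably transfected with GATA-1 fused to the estrogen receptor (ER) and come from 1 clone. They grew in DMEM with serum, glutamine and puromycin. The ES-EP, erythroid progenitors derived from embryonic stem cells, divided in StemPro34 medium with Epogen, hIGF-1, dexamethasone, murine SCF and beta-mercaptoethanol. Both were immunoprecipitated with the same antiserum against PU.1, from chromatin preparations A and B in each cell type, with 2 libraries of each preparation and with 1 MEL and 2 ES-EP input libraries. Cell type, transformation, the GATA-1/ER transgene and culture medium differ together and cannot be told apart.

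PU.1, the product of Spi1, is a transcription factor of the ETS family, whose members bind DNA around the core GGAA. It drives the development of macrophages, granulocytes and B cells, where it occupies both promoters and distant enhancers. In the erythroid lineage it is known to oppose GATA-1, and MEL cells carry a proviral insertion that keeps Spi1 expressed and blocks their differentiation.

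After repeated positions were removed, the MEL preparations held 5376474 (A) and 6567206 (B) reads and the ES-EP preparations 5818321 (A) and 6771951 (B). The inputs held 4210724 (MEL) and 7088441 (ES-EP) reads. ES-EP reads were multiplied by 0.949 to bring them to the MEL depth. Libraries of 1 preparation shared between 1.62% and 4.15% of their read positions, and libraries of different preparations between 0.81% and 1.63%. The letter in a library's name was read as its preparation, which the labels do not state. Libraries of 1 preparation were taken as technical repeats and were added up, which leaves n = 2 in each cell type. Of the autosomal lineage genes Klf1, Epor, Csf1r, Itgam, Cd14 and Mpo, none is the nearest gene of a MEL-selective site.

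The sequence under the sites is shown first, with the word GAGGAAGT, a form of the PU.1 site, in capitals. All sequences are from NCBIM37, the assembly mm9, written 5′ to 3′ on the strand given, and each is the occurrence nearest to the point of highest MEL coverage (the summit). The first group holds 11 sites with this word, chosen as sites with the most MEL reads and as sites of genes described further on. The summits named as starts of Pld4, S100a4, Sla, Cd53 and Lrrc8d lie in UTR exons, those of Fli1, Bcl2, Pecam1, Ets1, Pde10a and F5 in introns, and the others are intergenic.
Mlana upstream, chr19:29750126-29750165, minus strand: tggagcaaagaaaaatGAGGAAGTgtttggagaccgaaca
Ranbp6 upstream, chr19:29925988-29926027, minus strand: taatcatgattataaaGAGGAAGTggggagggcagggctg
Pld4 start, chr12:113998864-113998893, plus strand: ctcagaacaaaGAGGAAGTgaatggaaggg
S100a4 start, chr3:90407698-90407727, minus strand: agaccaagagaGAGGAAGTgctgaatagag
Syk start, chr13:52678454-52678493, plus strand: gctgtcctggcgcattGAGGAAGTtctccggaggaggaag
Sla start, chr15:66644265-66644294, minus strand: ttgtttcagcaGAGGAAGTgtgaggccctt
Cd53 start, chr3:106593043-106593072, plus strand: gcgagaagagtGAGGAAGTgagactgagtg
Fli1 intron, chr9:32280140-32280179, plus strand: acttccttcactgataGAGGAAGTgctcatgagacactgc
Bcl2 intron, chr1:108445823-108445862, plus strand: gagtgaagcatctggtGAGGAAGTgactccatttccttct
Pecam1 intron, chr11:106536758-106536797, minus strand: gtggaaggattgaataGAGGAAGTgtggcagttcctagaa
Runx3 upstream, chr4:134610409-134610448, minus strand: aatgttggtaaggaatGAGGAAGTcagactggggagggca

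Other sites with many MEL reads lack the longer word near the summit and hold only its last 6 bases, GGAAGT, which are in capitals in the next group. They are shown because this shorter form stands in most of the sites.
Syk upstream, chr13:52667970-52668007, plus strand: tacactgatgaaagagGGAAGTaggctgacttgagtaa
Lrrc8d start, chr5:106161236-106161265, plus strand: ctctttgaaacaGGAAGTgcactgctgact
Icam1 promoter, chr9:20819795-20819832, plus strand: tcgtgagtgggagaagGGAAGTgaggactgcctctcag
Ets1 intron, chr9:32475748-32475785, plus strand: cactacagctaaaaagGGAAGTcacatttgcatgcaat

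Further sites with very few ES-EP reads have neither GGAAGT nor GAGGAA in the 121 bases about the summit. These bases are shown whole for 3 of them, with each GGAA and each TTCC, its reverse complement, in capitals.
Pde10a intron, chr17:9064327-9064447, plus strand: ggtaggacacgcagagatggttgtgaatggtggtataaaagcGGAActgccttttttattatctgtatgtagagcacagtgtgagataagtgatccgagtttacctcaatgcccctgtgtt
Slc38a2 far upstream, chr15:96648257-96648377, plus strand: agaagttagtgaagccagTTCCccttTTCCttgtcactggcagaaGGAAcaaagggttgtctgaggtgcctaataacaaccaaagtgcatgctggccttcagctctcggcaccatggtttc
F5 intron, chr1:166107097-166107217, plus strand: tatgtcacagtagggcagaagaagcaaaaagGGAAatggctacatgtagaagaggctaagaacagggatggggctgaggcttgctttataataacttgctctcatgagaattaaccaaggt

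Across all 836 sites, 268 (32.1%, 95% exact binomial interval 28.9 to 35.3%) held GAGGAAGT on either strand in their strongest bin. The word is in 3.03% of all autosomal bins and in 2.51% of the bins 5 kb to either side of the sites. Of the 11582 other MEL sites, which have no such excess over ES-EP, 23.8% held it, and of 482 ES-EP-selective sites 23.9%. The difference from the other MEL sites goes with position. Over 2 kb from a transcription start site (TSS) the shares were 33.3% and 36.1%, and closer to one they were 21.3% and 10.5%. Away from promoters the share at MEL-selective sites was thus the lower of the pair, and near them the higher. Intervals on shares of sites and on ratios of reads, here and below, cover counting error only.

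The share of sites with GAGGAAGT was higher where MEL reads were more numerous. It was 22.5% in the 25% of sites with the fewest reads, then 31.1% and 34.9%, and 39.7% in those with the most. The shorter GGAAGT, which every GAGGAAGT contains, stood in 71.5% of the sites, against 58.6% of the other MEL sites and 26.03% of all bins. Over 2 kb from a TSS these shares were 73.5% and 73.2% at MEL-selective and other MEL sites. GAGGAA, a form with the first 6 of the 8 bases that was looked at after the data were seen, stood in 69.98%, against 39.3% of all bins. Over 2 kb from a TSS it stood in 70.95% of MEL-selective and 69.4% of other MEL sites. In the 121 bases about the summit, 92.3% of sites had GGAA or TTCC. The share was 84.4% at the other MEL sites, 94.6% at ES-EP-selective sites and 71.8% in windows of this length in the genome.

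The words lay close to the summits. In 221 sites (26.4%) a GAGGAAGT lay within 50 bp of the summit, and over the words within 250 bp of a summit the median distance was 18.5 bp. In the 50 bp on either side of the summit there were 15.1 and 11.7 words per 100 sites. Around the word, aligned over 257 sites, the 3 bases before it were A in 49.8%, 60.7% and 57.6% of sites, and the base after it was G in 64.98%. The printed Mlana and Fli1 sequences show such flanks in part. At the other MEL sites the 3 bases before the word were A in 64.5%, 71.4% and 59.7% of 2672 sites.

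**Figure D1:**
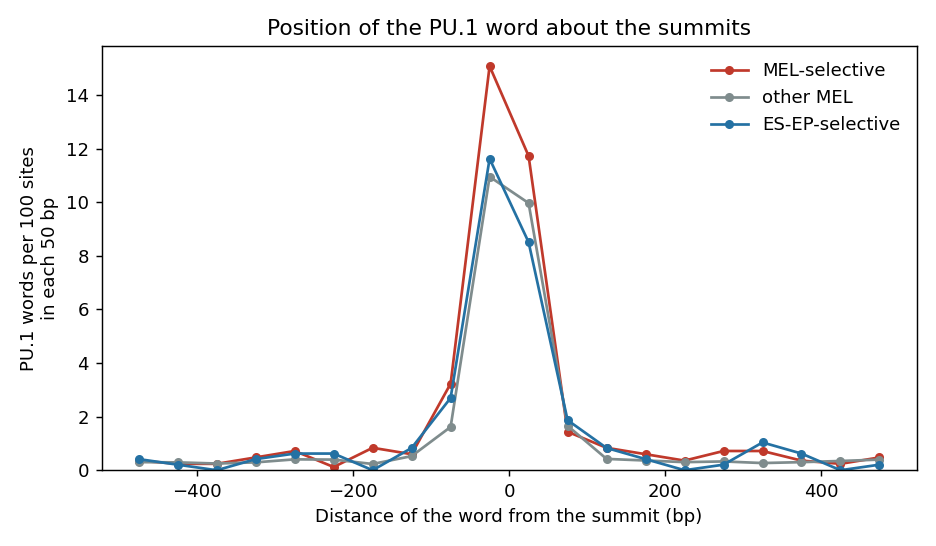
Words GAGGAAGT per 100 sites in each 50 bp (vertical axis) by distance from the summit in bp (horizontal axis), for MEL-selective, other MEL and ES-EP-selective sites. In all of them the words gather at the summit, and the MEL-selective sites reach 15.1 words per 100 sites in the 50 bp beside it.

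At the MEL-selective sites the shares of words of other factors lay closer to those of all bins. The GATA words AGATAA and TGATAA, bound by GATA-1, stood in 50% of MEL-selective sites, 29.2% of the other MEL sites, 60.4% of ES-EP-selective sites and 48.9% of all bins. Away from TSS the shares were 52.5%, 44.2% and 63.2%. The AP-1 word TGANTCA stood in 13.4% (all bins 14.4%), the RUNX word TGTGGT in 34.1% (31.4%), the C/EBP word TTGCNNAA in 18.5% (21.8%), the E-box CANNTG in 92.1% (93.1%) and the Klf word CCACACCC in 3.35% (3.04%). The composite of an ETS and an IRF site, a pair that PU.1 uses in B cells with a partner, stood in 6.94%, against 5.46% of all bins. These are matches of letters on both strands, and no match says only that the letters are not in the bin.

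The sites held a median of 25 MEL reads, with quartiles of 17 and 44 and a highest value of 286. The ES-EP median was 3 reads (0 to 40), and the input medians were 1 (MEL) and 2 (ES-EP). In RPM, the reads per 1000000 reads of the preparation, the medians were 2.05 in A and 2.28 in B of the MEL cells and 0.344 in A and 0.295 in B of the ES-EP, against 0.238 in MEL input and 0.282 in ES-EP input. The rule kept the ES-EP reads low, and their medians lay near those of the inputs. Summed over the sites, the MEL libraries held 2398 and 2393 RPM (A) and 2813 and 2892 RPM (B), and the ES-EP libraries 391 and 405 RPM (A) and 254 and 277 RPM (B). The inputs held 296 RPM (MEL) and 228 RPM (ES-EP).

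**Figure D2:**
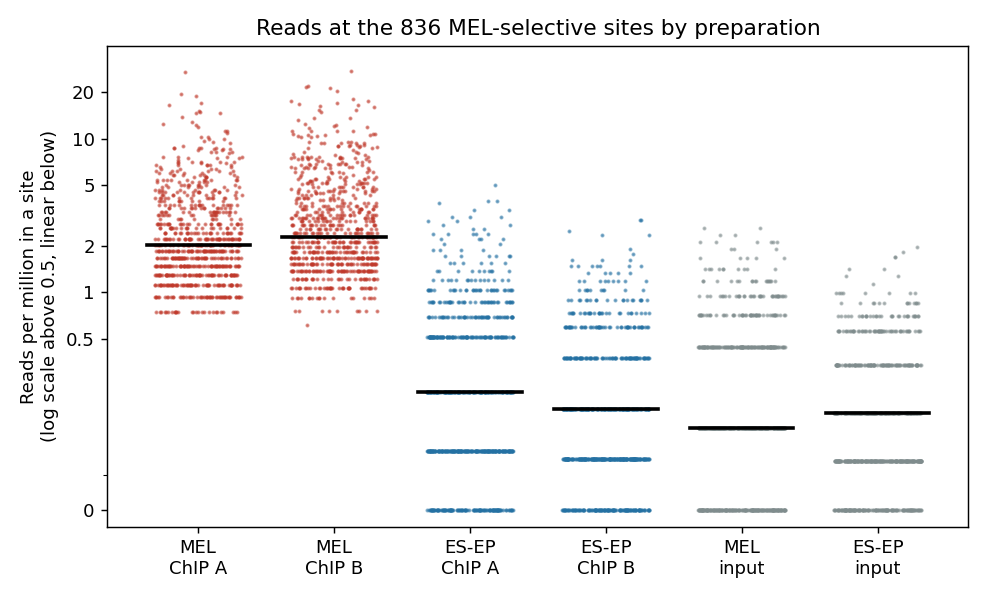
RPM at each of the 836 sites (vertical axis, log scale above 0.5 and linear below) in the MEL and ES-EP ChIP preparations A and B and in both inputs (horizontal axis). The medians are 2.05 and 2.28 in MEL ChIP and 0.344 and 0.295 in ES-EP ChIP, the latter close to the inputs.

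The median ratio of MEL to scaled ES-EP reads was 7.52 over the 806 sites with an ES-EP read, with quartiles of 5.67 and 10.5. The other 30 sites had none, and a count of 0 allows up to 3 reads, or 0.238 RPM. At the threshold, sites near Casp8, Cntnap5a and Tada1 had a ratio of 5.01 (19 MEL and 4 ES-EP reads) and were in. A bin near Btrc had a ratio of 4.996 (109 and 23 reads) and was out. In all 836 sites each MEL preparation had more RPM than each ES-EP preparation. The rule used these same reads and favours this, and the share was not counted over other bins. In 347 (41.5%) the ratio was over 5 in every pair of preparations. Counting error is wide at this depth, since 271 sites (32.4%) had 15 to 19 MEL reads, and the intervals of the ratios do not account for the selection on the same reads.

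Preparation B had slightly more RPM than A, by a median of 1.15 times. In 100 sites B was over 2 times A, and in 34 A was over 2 times B. Sites near a TSS leaned further to B, by a median of 1.64 times, against 1.13 times elsewhere. Among the promoters, Icam1 had 41 reads in A and 111 in B, Prkag2 53 and 133, and Tyrobp 6 and 19.

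To see how sites chosen without a preparation behave in it, the rule was applied with each left out. Without MEL A the rule chose 609 sites, and in 97.5% of them MEL A had more RPM than ES-EP, by over 2 times in 90.5% and by over 5 times in 51.2%. Without MEL B it chose 277, and in the left-out MEL B these shares were 99.3%, 98.2% and 77.98%. Without ES-EP A it chose 1404, and against the left-out ES-EP A the shares were 93.4%, 73.6% and 32.6%. Without ES-EP B it chose 786, with shares of 99.5%, 93.0% and 59.0%. In each of these comparisons only the left-out preparation was new, and the reads of the other cell type had served to choose the sites. The 5-fold size was reached least often against ES-EP A.

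MEL-selective sites lay far from genes' starts. Within 2 kb of a protein-coding TSS were 89 sites (10.6%, 95% exact binomial interval 8.64 to 12.9%), at 2 to 10 kb 174 (20.8%), at 10 to 50 kb 294 (35.2%) and beyond 50 kb 279 (33.4%). The median distance was 24772 bp. The other MEL sites had a median distance of 2641 bp, with 48.1% within 2 kb, and the ES-EP-selective sites one of 30449 bp, with 9.75% within 2 kb. Of all bins 4.34% lie that close. The sites selective for either cell type thus had the longer median distances, and those with reads in both the shortest, a difference that was given no test. At the other MEL sites the ES-EP input libraries held 14719 and 18231 RPM in all, against 4670 RPM in MEL input. The rule did not set ES-EP reads against the ES-EP input, while the rule turned round did. The part of this input in the distances was not tested. By annotation, 449 sites (53.7%) were intergenic, 324 (38.8%) intronic, 36 in coding exons, 25 in UTR exons and 2 in other exons. The median GC content was 46.4%, against 54.2% at the other MEL sites and 41.8% in all bins.

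**Figure D3:**
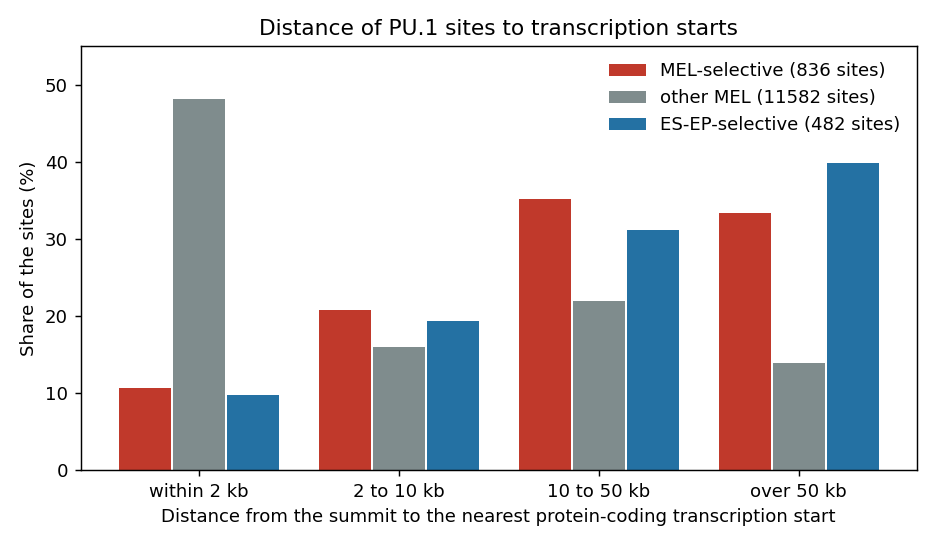
Share of sites in % (vertical axis) by distance to the nearest protein-coding TSS (horizontal axis) for MEL-selective, other MEL and ES-EP-selective sites. Of the MEL-selective sites 10.6% lie within 2 kb, against 48.1% of the other MEL sites.

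Many sites lie in stretches of the genome with more DNA reads in MEL cells, also without immunoprecipitation. The ratio of MEL to ES-EP input RPM in the 100 kb about a site had a median of 1.32 at MEL-selective sites (0.44 to 8.93), 1.04 at the other MEL sites and 0.807 at ES-EP-selective sites. Windows of 100 kb with a ratio of at least 2 are 351 of 23284 (1.51%), and they hold 197 of the MEL-selective sites (23.6%), 374 of the other MEL sites (3.23%) and 0 of the ES-EP-selective sites. When each site's ChIP ratio was divided by the input ratio about it, 467 of 806 sites (57.9%) remained above 5, with a median of 5.55. When the ES-EP reads were also multiplied by the local input ratio before the rule was applied, it chose 545 sites, with 558 bins, of which 510 are among the reported ones. They are 91.4% of these bins and 59.2% of the 862 reported bins. The part of this in the selection of single sites was not tested beyond these values, and the input ratio is given beside the sites with the most reads and most of the genes with several sites.

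**Figure D4:**
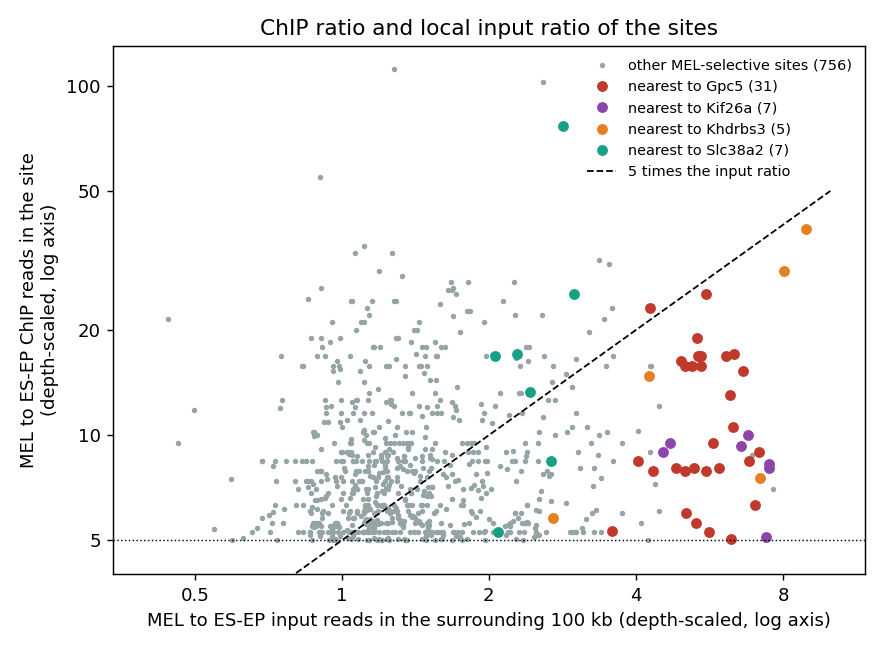
Ratio of MEL to scaled ES-EP ChIP reads of the 806 sites with an ES-EP read (vertical axis, log scale) against the MEL to ES-EP input ratio in the 100 kb about the site (horizontal axis, log scale), with the sites of Gpc5, Kif26a, Khdrbs3 and Slc38a2 in colour, a dotted line at a ratio of 5 and a dashed line at 5 times the input ratio. The 31 Gpc5 sites drawn lie at input ratios between 3.57 and 7.13.

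Sites with a local input ratio of at least 2, counted in the 100 kb about each (191 sites), stood less far above their surroundings. Their MEL ChIP reads were a median of 3.61 times the mean of the 100 kb about them, against 8.37 times at the 645 sites with a lower input ratio. Of these, 85 (44.5%) and 586 (90.9%) were at least 4 times the local mean. GAGGAAGT stood in 22.5% of the former and in 34.9% of the latter. The longest such stretch is chr3:94400001-103900000, with an input ratio of 2.61 and 48 sites. By chromosome, MEL-selective sites were the highest share of all MEL sites on chromosomes 14 (14.7%), 3 (13.5%) and 15 (11.1%), whose whole input ratios were 0.918, 1.27 and 1.26. The lowest share was on chromosome 8 (2.66%, input ratio 0.699).

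The sites with the most MEL reads are near genes of varied function, and the leading ones are given here with their 4 preparations. Upstream of Mlana, a protein of melanosomes, MEL cells had 146 (A) and 140 (B) reads and ES-EP 20 and 20, a ratio of 7.54 at a local input ratio of 3.40. At the start of Lrrc8d, a subunit of volume-regulated anion channels, there were 79 and 180 reads against 14 and 20, at an input ratio of 1.47. At the start of Pld4, a member of the phospholipase D family, there were 80 and 145 against 15 and 8, at an input ratio of 4.04. The MEL and ES-EP preparations did not overlap in any of them, as at every site the rule chose. Upstream of Ranbp6, of the importin family, the site had 101 and 142 reads against 23 and 16, at 2.53. In an intron of Rwdd3, which promotes SUMO conjugation, 1819 bp before the nearest of its starts, there were 92 and 109 against 29 and 11, at 3.39, and at the strongest of the sites upstream of Gpc5 89 and 105 against 9 and 3, at 6.34. These sites too had no overlap between the cell types, which the rule favours. At S100a4, a calcium-binding protein linked to cell motility, the site 18 bp from the start had 81 and 101 against 23 and 10, at 1.88. At Prkag2, a gamma subunit of AMP-activated kinase, there were 53 and 133 against 22 and 16, at 1.72. Divided by the local input ratio, the ratios at Mlana, Pld4, Ranbp6, Rwdd3 and this Gpc5 site were 2.22, 2.55, 2.59, 1.56 and 2.69. At S100a4 and Prkag2 they were 3.09 and 3.01, and at Lrrc8d 5.47. The site 5998 bp before E330020D12Rik had 79 and 98 reads against 6 and 9, a ratio of 12.4 at an input ratio of 1.05, and 11.8 after division. The bin itself held 10 MEL and 3 ES-EP input reads, which this division over 100 kb does not take into account.

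Syk (Sykb in the annotation), the tyrosine kinase that carries signals from antigen and Fc receptors, had 3 sites. The one 10486 bp upstream, chr13:52667501-52668500, had 38 and 66 reads in the libraries of MEL A, 38 and 80 in MEL B, 2 and 5 in ES-EP A and 0 and 2 in ES-EP B. Its ratio was 26 (95% exact interval 13.5 to 57.6), and 15.5 after division by the local input ratio of 1.68. At the promoter of Syk, 91 bp upstream, MEL cells had 47 (A) and 116 (B) reads against 5 and 17, a ratio of 7.81 at an input ratio of 1.98. All MEL libraries thus exceeded all ES-EP libraries at the upstream site, where the ratio was larger than at the promoter.

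The largest ratios were at distant and intronic sites. In an intron of Pde10a, a phosphodiesterase of cyclic nucleotides, chr17:9064001-9064500 had 13, 32, 19 and 42 reads in the MEL libraries and 0, 0, 0 and 1 in the ES-EP libraries, a ratio of 111.7 (19.6 to 4455). In an intron of F5, coagulation factor V, chr1:166107001-166107500 had 18, 28, 19 and 39 against 0, 1, 0 and 1, a ratio of 54.8 (14.8 to 459) at an input ratio of 0.901. The width of these intervals comes from the 1 or 2 ES-EP reads, and the input ratio at Pde10a was 1.28. The site 118188 bp upstream of Slc38a2, a transporter of neutral amino acids, had 29 and 44 reads against 1 and 0, at an input ratio of 2.83. The site nearest to Pias3, an inhibitor of STAT3, lies in an intron of Ankrd35 and had 47 and 50 against 1 and 0, at 2.59. Of the sites without any ES-EP read, the one near 1600014C10Rik had 37 and 57 MEL reads, at least 33-fold higher when ES-EP is set to the floor of 3 reads over all its libraries (95% exact lower limit 26.3), with 8 MEL and 0 ES-EP input reads in the bin itself. Those near Adam30, a metalloprotease, and in Csnk1g1, a casein kinase, were at least 18.3-fold and 16.2-fold higher by the same floor (lower limits 14.3 and 12.6), at input ratios of 2.92 and 1.18. Their bins held 2 and 3 MEL input reads and 0 ES-EP input reads, so ES-EP DNA was not seen there without immunoprecipitation either. Of all 836 sites, 157 had no ES-EP input read. The part of this in the folds was not tested.

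The nearest protein-coding genes number 665, of which 92 have at least 2 sites, 31 at least 3 and 7 at least 5. Of the 7785 genes nearest to other MEL sites, 2450 have at least 2 of those sites. Of the 427 genes nearest to ES-EP-selective sites, 39 have at least 2. Of the 92 genes, 31 have a median local input ratio of at least 2, and 43 one below 1.5. Of the 31 genes with at least 3 sites, 17 have one of at least 2. Gpc5, a glypican of the cell surface, is the nearest coding gene of 33 sites, all upstream of it. They had 428 and 572 MEL reads in all, against 57 and 50 in ES-EP.

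The Gpc5 sites lie at 754088 to 1992 bp upstream of Mir17, the first miRNA of the cluster Mir17 to Mir92-1, whose miRNAs promote proliferation. All have a local input ratio between 3.53 and 7.13. In this stretch, chr14:114300001-115500000, the MEL ChIP reads averaged 8.17 per bin, against 2.32 in the genome, and 14.1% of bins had at least 15, against 0.683%. The ES-EP ChIP reads averaged 1.81 per bin there and 2.48 in the genome. The 33 sites were a median of 1.77 times the local MEL ChIP mean, and 5 were at least 4 times it. GAGGAAGT stood in 2 of them (6.06%). The site nearest to Mir17 had 29 and 107 MEL reads and 18 and 9 ES-EP reads, a ratio of 5.31, or 1.49 after division by the input ratio. With ES-EP reads scaled by the local input, the rule chose 3 sites nearest to Gpc5.

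**Figure D5:**
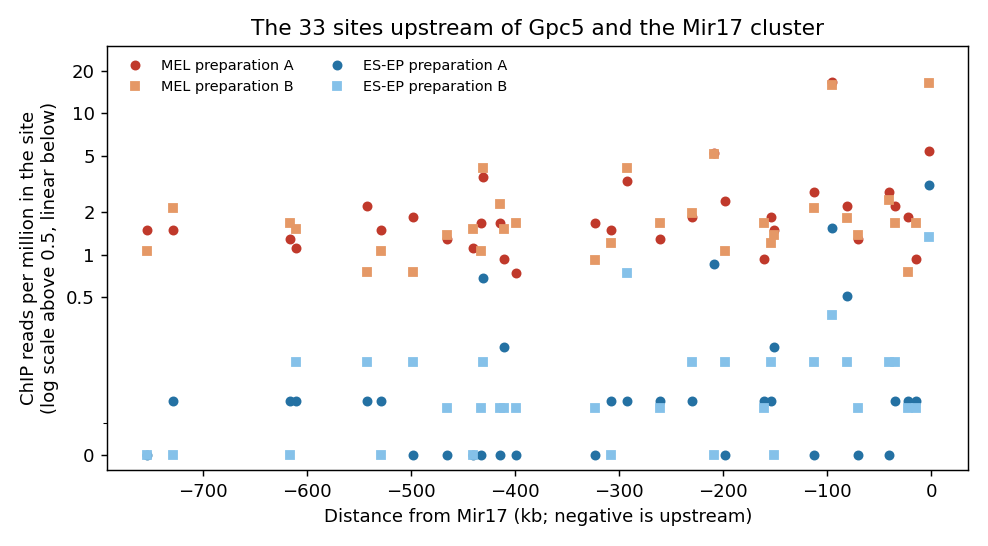
ChIP RPM (vertical axis, log scale above 0.5 and linear below) in MEL and ES-EP preparations A and B at the 33 sites nearest to Gpc5, by their distance from Mir17 in kb (horizontal axis, negative is upstream). The sites run from 754088 to 1992 bp upstream of it. In each both MEL preparations lie above both ES-EP preparations, as at every site the rule chose.

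The local input ratio differed widely between the other genes with several sites. Kif26a, of the kinesin family, had 7 sites (171 and 315 MEL reads against 34 and 34) at input ratios of 4.54 to 7.48, and Khdrbs3, an RNA-binding protein, 6 (133 and 151 against 15 and 13) at 2.70 to 8.93. Slc38a2 had 7 sites with 170 and 276 MEL reads against 15 and 12, at 2.06 to 2.99. After scaling by local input the rule chose 5 sites near Slc38a2, more than near any other gene. Its sites were a median of 8.60 times the local MEL ChIP mean, against 2.19 times for Kif26a. Ets1, an ETS factor of lymphoid cells, had 3 sites (51 and 72 against 10 and 5) at 1.03 to 1.70. Ext1, which builds heparan sulfate, had 3 at 1.19 to 1.48, and 1700112E06Rik (Lrmda) 3 at 0.499 to 1.28.

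Sites within 50 kb of each other form 68 groups of at least 2, with 199 sites, and 637 sites stand alone. The largest group has 19 sites over 321184 bp and lies upstream of Gpc5.

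Among known PU.1 targets of myeloid and B cells, 5 of the 665 genes (0.752%) were found, against 0.352% of all protein-coding genes, 0.514% of the genes nearest to other MEL sites and 0.663% of those nearest to other MEL sites over 2 kb from a TSS. Without sites of an input ratio of at least 2, which leaves out those of Tyrobp and Cebpa, 3 of 571 genes (0.525%) remained. Beside Syk they include Cd53, a tetraspanin of leukocytes (25 and 24 MEL reads 22 bp from the start, 6 and 2 in ES-EP). Tyrobp, the adaptor DAP12, had 6 and 19 against 2 and 0, and Cebpa, a factor of granulocytes, 10 and 14 against 3 and 2. Of the erythroid programme, 2 genes were found (0.301%, against 0.305% of all genes, 0.424% at other MEL sites and 0.474% at those over 2 kb from a TSS), the water channel Aqp1 (7 and 20 against 3 and 2) and the potassium channel Kcnn4 (4 and 16 against 2 and 1).

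Of the megakaryocyte and platelet list, 6 genes with 12 sites were found (0.902%, against 0.207% of all genes, 0.180% of genes nearest to other MEL sites and 0.189% of those nearest to other MEL sites over 2 kb from a TSS). Beside F5 they include Fli1, an ETS factor that megakaryocytes need, with 5 sites (87 and 130 MEL reads against 20 and 16) at input ratios of 1.94 to 2.19, and Vwf, von Willebrand factor, with 3 (19 and 55 against 3 and 7). Ptgs1, cyclooxygenase of platelets, had 12 and 15 reads against 1 and 2. Zfpm2, on the list as a GATA cofactor but known chiefly from the heart, had 14 and 12 against 3 and 0. All 6 remain when sites with an input ratio of at least 2 are left out, Fli1 by its site of the lowest ratio, 1.94. The median input ratio of the 5 Fli1 sites was 2.17, and their ChIP ratios before division by it were 5.49 to 8.96. Vwf was among the 41 genes with at least 2 sites after scaling by local input, and Fli1 was not. Of the ETS family, Fli1, Ets1 and Etv3 were found with 9 sites (0.451%, against 0.113% of all genes, 0.167% at other MEL sites and 0.095% at those over 2 kb from a TSS). Fli1 and Ets1 are neighbours and do not count as separate loci. Of the 9 sites, 6 lie in the stretch chr9:32300001-32500000, which reaches both genes and has an input ratio of 2.14. Etv3 had 18 and 36 reads against 4 and 1.

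For the remaining lists each bracket gives the share among the 665 genes, then among the genes nearest to other MEL sites, among those nearest to other MEL sites over 2 kb from a TSS, and among all protein-coding genes. In the signalling lists the shares were above that of all genes, and on either side of those of the other MEL sites. Where a gene has several sites, reads are those of the site with most, unless sums are named. Cytokine receptors and their signalling had 5 genes (0.752%, 0.591%, 0.853% and 0.451%), with Il6ra at 19 and 28 MEL reads against 3 and 4. Regulators of small GTPases had 15 (2.26%, 1.79%, 2.01% and 0.963%), with Dab2ip, a RasGAP, at 64 and 73 against 17 and 10, and the exchange factor Trio at 31 and 61 against 3 and 5, at an input ratio of 2.06. Protein kinases and phosphatases had 14 (2.11%, 3.08%, 3.32% and 1.85%). Phospholipid, cyclic nucleotide and calcium signalling had 15 (2.26%, 1.77%, 1.99% and 1.15%), with Rgs6, which ends G protein signals, at 50 and 44 against 9 and 7. These ES-EP counts are small, and the preparations of the 2 cell types do not overlap at any of the genes named, as at every site chosen.

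Adhesion and cell surface genes were 29 (4.36%, 2.06%, 2.96% and 1.78%). Icam1, the ligand of leukocyte integrins, had 41 and 111 MEL reads 638 bp upstream of its start, against 12 and 11. Pecam1, of platelets and endothelium, had 24 and 42 in an intron against 4 and 2, and Siglecg, a B-cell inhibitory receptor, 30 and 34 against 6 and 2. Transporters and channels were 38 (5.71%, 3.91%, 4.74% and 3.40%), with Slc16a1, a lactate carrier, at 46 and 58 against 9 and 4, at an input ratio of 2.24 (8.43, and 3.77 after division).

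DNA-binding transcription factors were 34 (5.11%, 5.61%, 5.59% and 4.31%), with Runx3 at 28 and 36 against 8 and 5. Zfp36l2 entered that list by its name and is an RNA-binding protein. Chromatin and DNA methylation genes were 10 (1.504%, 1.81%, 1.52% and 1.03%). Among them the polycomb protein Cbx7 had 17 and 46 against 1 and 1, at an input ratio of 1.26. The Cbx7 bin itself held 5 MEL and 0 ES-EP input reads. The deacetylase Hdac7 had 40 and 59 against 11 and 0, at an input ratio of 2.52 (9.49, and 3.76 after division). Dnmt3a, a DNA methyltransferase, had 18 and 18 against 2 and 3 in an intron, 1107 bp past the nearest of its annotated starts, at an input ratio of 1.24, and Katnal1, of a microtubule-severing enzyme, entered by its name. Cell death and survival genes were 8 with 13 sites (1.20%, 0.617%, 0.687% and 0.503%). Bcl2, which blocks apoptosis, had 5 sites with 53 and 91 reads against 8 and 12, at input ratios of 2.62 to 3.37, and the BH3-only gene Pmaip1 had 60 and 60 against 14 and 11 at its stronger site. Olfactory and vomeronasal receptors, genes of sensory neurons, were 4 (0.602%, 0.565%, 0.876% and 6.89%), and 2.11% of the genes nearest to ES-EP-selective sites were of this kind.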

How the data were processed

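PU.1 ChIP-Seq libraries of MEL cells and ES-EP and their inputs were sequenced by the authors on an Illumina GAII and aligned with ELAND (version not given in the sources used here) to mm9, the build in the submitters' processing notes, keeping unique alignments with up to 2 mismatches. The deposited files hold 1 aligned read per line, so their positions are neither counts nor a score and every read number was counted here. No column of another series was used (0 columns), and the authors' merged peaks were not used.

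The letter in a library's name was taken to mark the chromatin preparation, and the number the library. The 5′ end of each read was moved by 70 bp (MEL) or 65 bp (ES-EP) toward the fragment's middle, at most 1 read per position and strand was kept in each library, and reads were counted in 500 bp bins. Repeated positions were 1.585 to 8.999% of reads, and ChIP libraries kept 1869760 to 4703083 reads, which leaves counting error wide in a bin with 15 reads. Cell types were scaled by total reads. The MEL input was scaled to the ChIP depth before the floor of 3 reads was applied. Ratios have exact binomial intervals at 95%.

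Sites were placed by their summit against protein-coding TSS of GENCODE on NCBIM37, and present symbols came from RefSeq, which matched 649 of 665 genes. Words were searched on both strands of the strongest bin. Repeats were not masked. The script was tested on simulated data. Named are the 12 sites with the most MEL reads, overall and within 2 kb of a TSS, up to 12 genes with at least 3 sites, up to 4 genes of each list by reads, the sites beside the threshold and the study's loci, from which the text takes a selection. Sites with the highest ratios or no ES-EP read, and list members beyond the 4 (such as Ptgs1, Zfpm2 and Cebpa), were chosen after their values were seen. Some genes counted in the lists are not reported here by name. Members and gene lists were chosen with earlier results of these data known. Python 3.11.15, NumPy 2.4.6, SciPy 1.17.1, pandas 2.3.3 and matplotlib 3.10.9 were used.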

Additional observations from a re-analysis of the deposited data

Results flagged for a closer look

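Data outside the autosomes also held such sites. On chromosomes X and Y, which the selection leaves out, the same requirements gave 71 MEL-selective sites, 70 on X and 1 on Y. They had 838 (A) and 1081 (B) MEL reads and 134 and 118 ES-EP reads, with 49 MEL and 68 ES-EP input reads. The median ratio of MEL to ES-EP input in the 100 kb about them was 1.87, and the part of this input ratio in the ChIP ratio was not tested. In comparison, 339 other MEL sites and 4 ES-EP-selective sites lay there. Among 26 sets of 4 libraries, 0 had a library that stood apart by Dixon's criterion. The 4 libraries were taken as 2 technical repeats of 2 preparations, while the criterion takes them as independent.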

How the results depend on the processing

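The number of sites, the share within 2 kb of a TSS, the share with a PU.1 word, the number of genes with at least 2 sites and the median ratio were 836, 10.6%, 32.1%, 92 and 7.52. In bins of 250 bp 14.05% of sites lay within 2 kb. In bins of 1000 bp the values were 551, 8.53%, 28.3%, 51 and 6.55. Without the shift the median ratio was 7.12. A fold of 3 gave 1789 sites, 14.5% within 2 kb and 256 genes, and a fold of 10 gave 256 sites, 8.59% and 21 genes. With the floor of 3 set on MEL input reads before scaling, 282 sites, 38.7% with the word and 27 genes were found. Against all annotated genes 16.03% lay within 2 kb. The shorter word stood in 71.5% and GAGGAA in 69.98%. By the gene whose body holds the site, 39 genes had at least 2.
Leaving out 1 library or 1 preparation in turn gave 277 to 1404 sites, 8.30 to 18.2% within 2 kb, 29.1 to 41.2% with the word, 25 to 182 genes and median ratios of 7.46 to 8.50. The fewest sites came without MEL B and the most without ES-EP A. Without MEL library A2 there were 451 sites and 36 genes, and without B2 455 and 45.
Chosen after the data were seen were GAGGAA, ES-EP reads scaled by the 100 kb input ratio (545 sites, 41 genes, median ratio 8.43) and leaving out sites with an input ratio of at least 2 (61 genes). The cause was not tested, except that a higher fold or floor admits fewer bins by construction. The direction at the sites is fixed by their choice. With 15 to 19 MEL reads at 271 sites and 1 MEL input library, depth limits the ratio of single sites. No paired analysis was possible because preparations A and B of the cell types share only a letter and no test was run.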

Other observations

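At genes of interest to the study, Dnmt3a had 3 further MEL sites beside its MEL-selective one, with ratios of MEL to scaled ES-EP reads of 0.780, 0.725 and 4.85. The MEL sites whose nearest gene is Mxi1, a MYC antagonist, had ratios of 1.67 and 1.04. These ratios take no account of input. The 3 further Dnmt3a sites held 3, 1 and 1 MEL input reads and 22, 13 and 3 ES-EP input reads, unscaled. The Mxi1 sites held 4 and 1 MEL input reads and 11 and 33 ES-EP input reads. Their ES-EP ChIP reads were 23 (A) and 11 (B) at the first and 37 and 18 at the second. Sites were looked for there by nearest gene only, and the positions of the study's PCR amplicons were not used here. Of the stretches with raised MEL input, chr12:113200001-114700000, with Kif26a, Pld4 and Akt1, had an input ratio of 4.598, 19 MEL-selective and 21 other MEL sites, and a mean of 14.97 MEL ChIP reads per bin. The stretch chr19:29300001-30100000, with Jak2, Il33, Mlana and Cd274, had an input ratio of 3.14, 9 MEL-selective and 17 other MEL sites. At the start of Il33, a cytokine of the IL-1 family, there were 18 and 16 MEL reads and none in ES-EP.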
